A study of Mus musculus with 12 samples.

Results

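The response to lipopolysaccharide (LPS, a component of the outer membrane of Gram-negative bacteria) was followed across 12393 genes in mouse macrophages that lack interleukin 10 (IL-10). It was read from 4 of the study's 12 arrays, picked by their titles, namely the 2 arrays of LPS-treated IL10-/- cells and the 2 arrays of unstimulated IL10-/- cells. Bone marrow of the strain given as 129-SvEv-Tac was cultured for 5 days with 30% L-cell conditioned medium, which supplies macrophage colony-stimulating factor, and 10% serum. The cells then received no stimulus or LPS at 1 ng/ml, and RNA was taken at 4 h. Both groups carry the Il10 deletion, so the controls lack IL-10 as well, and no cells with an intact Il10 gene enter the comparison. The other 8 arrays hold IL10-/- cells given LPS together with IL-10, and p50-/-IL10-/- cells, which also lack the NF-kB subunit p50, under the same 3 treatments. Only the p50-/-IL10-/- cells without stimulus or with LPS are set beside the response here. The age and sex of the mice, and how many animals stand behind an array, are unknown here. The labels call the 2 arrays of a group biological replicates without saying whether they came from separate animals or cultures. The p-values therefore cover the spread between replicate arrays, which may be technical. This spread was estimated from all 12 arrays in 6 groups and not from the 4 compared arrays alone.

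LPS is sensed by Toll-like receptor 4 together with CD14 and MD-2. Adaptors of the MyD88 branch lead to NF-kB and the MAP kinases, and the TRIF branch leads to IRF3 and interferon beta, which acts back on the cell through its receptor, the Janus kinases and STAT factors. Macrophages also remodel metabolism, phagocytosis and the cell cycle when activated, and IL-10 is a main restraint on inflammatory genes through STAT3.

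Levels are log2 RMA values, on which a difference of 1 is a 2-fold change. A difference is LPS minus unstimulated with its standard error (SE), with n = 2 arrays per group, and a gene was called higher or lower at a limma p-value under 0.05 after Benjamini-Hochberg adjustment over the 12393 genes. The 2 unstimulated arrays correlated at 0.995 over all genes and the 2 LPS arrays at 0.992, against 0.960 to 0.977 between the groups. Il10 itself read 6.57 and 6.98 without stimulus and 7.71 and 7.55 with LPS, but the place of its probes relative to the deletion is unknown here, so it checks nothing about the knockout. Of 14 macrophage markers, 1 was below the lower quartile of the arrays on all 4 arrays, and the mean level of the 14 was 11.55 to 11.78 on the 4 arrays. Of 51 measured markers of other cell types (stromal, mast, erythroid, T, NK, B and dendritic cells and neutrophils), 0 were called higher and 1 was called lower. Neutrophil markers averaged 8.41 to 8.46 on the 4 arrays, with S100a8 the brightest, and B cell markers averaged 7.37 on both unstimulated arrays and 7.04 and 7.11 on the LPS arrays. These are whole cultures, so a change in the number of cells of a type and a change in RNA per cell cannot be told apart. A group mean below 5.94, the highest lower quartile of the 12 arrays, is called dim, and sizes that involve one are uncertain.

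LPS raised fewer genes than it lowered, but the increases were larger. Of the 12393 genes, 962 were called higher (7.76%) and 2116 lower (17.1%), together 24.8%. The gene lists held 1720 measured genes, of which 357 rose and 348 fell (230 fell without unstimulated array 2). The median size was 0.70 log2 among increases and 0.50 among decreases. A change of at least 2 log2 was reached by 107 increases and 23 decreases, and one of at least 3 log2 by 38 increases and 0 decreases. The called genes with at least a 2-fold change numbered 328 higher (2.65%) and 242 lower (1.95%). The direction of small changes turns on scaling. With each array centred on its median over these genes, 1512 genes were higher and 1492 lower, so that 50.3% of the calls were increases in place of 31.3%. The count of decreases was 1293 without unstimulated array 2 and 1325 without LPS array 1.

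**Figure D1:**
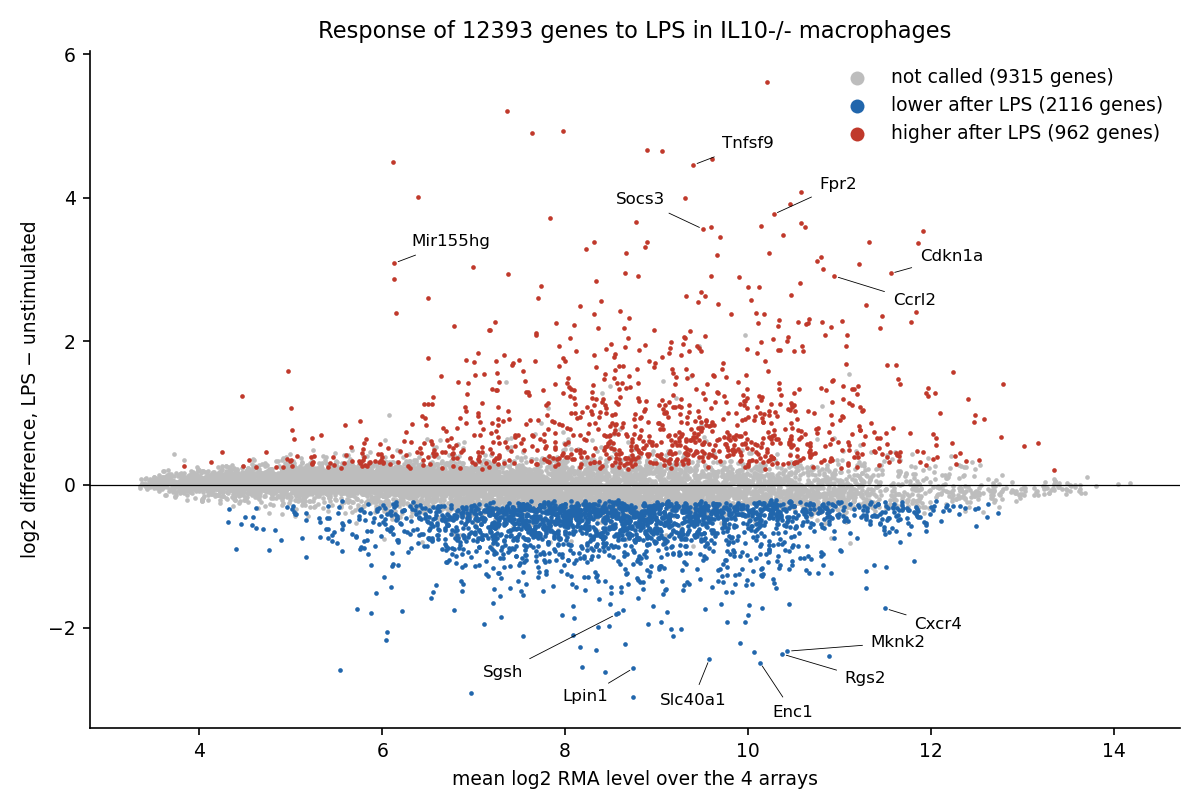
Each point is 1 of 12393 genes, with the mean log2 RMA level over the 4 arrays on the x axis and the log2 difference, LPS minus unstimulated, on the y axis. The 962 genes called higher (red) reach further from 0 than the 2116 called lower (blue), and 9315 genes were not called (grey).

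The receptors through which macrophages meet bacterial products changed in opposite directions. Of 14 Toll-like receptors and co-receptors, 5 rose and 1 fell. The LPS receptor Tlr4 read 8.52 and 8.61 without stimulus and 7.90 and 7.89 with LPS, and it fell by 0.67 ± 0.10 log2 (adjusted p = 0.000757). Tlr2, which recognises bacterial lipoproteins, read 11.92 and 11.70 without stimulus and 13.03 and 12.99 with LPS and rose by 1.2 ± 0.083. Its partners Tlr1 and Tlr6 rose by 2.05 ± 0.28 and 1.10 ± 0.12, and Tlr3, a receptor for double-stranded RNA, rose by 1.40 ± 0.23. For all 5 of these receptors the arrays of the groups did not overlap, which held for 57.3% of all genes. The co-receptor Cd14 rose by 0.54 ± 0.076 from a high level, and the difference of Ly96, which codes for MD-2, was -0.11 ± 0.070 and was not called. Downstream, the adaptor Myd88 rose by 1.44 ± 0.10, the kinase Ikbke by 1.37 ± 0.13, the ubiquitin ligase Peli1 by 2.08 ± 0.12 and the TBK1-binding protein Tank by 1.19 ± 0.13. Irak1 and Traf6, at -0.09 ± 0.17 and 0.04 ± 0.11, were not called.

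Most measured members of the NF-kB pathway rose. NF-kB dimers are held in the cytoplasm by IkB proteins, and many genes that they switch on code for their own inhibitors. All 4 measured subunits rose, Rel by 1.73 ± 0.17, Nfkb2 by 1.42 ± 0.089, Relb by 1.21 ± 0.10 and Rela by 0.64 ± 0.074. Rel, the subunit c-Rel of activated lymphoid and myeloid cells, read 6.37 and 6.40 without stimulus and 8.37 and 7.85 with LPS, so its 2 LPS arrays lay above both unstimulated ones. Of 5 IkB proteins 4 rose, the largest being Nfkbiz at 2.57 ± 0.22, a nuclear IkB protein, followed by Nfkbie at 2.15 ± 0.13 and Nfkbib at 1.51 ± 0.13. Nfkbia rose by 0.58 ± 0.068, with unstimulated levels of 12.92 and 12.85 log2. Bcl3 was not called at 0.41 ± 0.15, but was called higher after centring, with the replicate number as a block and without LPS array 1 (0.63). Of 11 feedback regulators 6 rose, among them the TNF receptor adaptor Traf1 at 3.71 ± 0.12, the deubiquitinase Tnfaip3 (A20) at 2.04 ± 0.17 and its partner Tnip1 at 1.48 ± 0.095. The median of the 20 measured members was 1.05, against -0.01 for all genes.

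Genes of cytokines and chemokines, the ligands that macrophages release, rose in several families. Of 71 secreted cytokines 14 rose and 4 fell, and of 31 chemokines 13 rose and 1 fell (0 fell without unstimulated array 2, without LPS array 1, or after centring). Of the 9 genes of the TGF beta superfamily 0 were called, and 1 rose without LPS array 2 or after centring and 1 fell without unstimulated array 2. The TNF family member Tnfsf9, a ligand of T cell co-stimulation, read 7.04 and 7.31 without stimulus and 11.41 and 11.84 with LPS and rose by 4.45 ± 0.17. Tnf rose by 3.91 ± 0.11, Il1b by 3.11 ± 0.26 and the IL-1 receptor antagonist Il1rn by 1.49 ± 0.16. The macrophage growth factor Csf1 rose by 1.83 ± 0.13, while Csf3 at 0.07 ± 0.083 (dim) and Csf2 at 0.31 ± 0.19 were not called, and Il16, a T cell chemoattractant, fell by 0.70 ± 0.12. Interferon beta, Ifnb1, read 6.04 and 6.00 without stimulus and 6.87 and 6.34 with LPS, and its call at 0.59 ± 0.18 ended without unstimulated array 1, without unstimulated array 2 and without LPS array 1 (highest adjusted p = 0.301), and the difference was 0.32 without LPS array 1. Among chemokines, Cxcl2, a neutrophil attractant, rose by 3.59 ± 0.11, Ccl4 by 3.47 ± 0.28 and Ccl3 by 3.23 ± 0.21. The T cell attractants Ccl22 and Ccl17, of alternatively activated cells, were not called at 0.23 ± 0.085 and 0.26 ± 0.11.

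The promoters of these genes were searched for the letters that NF-kB binds. Over the 250 bases before the start site, on both strands, the 10-base kB pattern was present in 10.5% of the 9887 measured genes with a RefSeq promoter (GRCm38.p6). It was present in 7 of 16 NF-kB pathway genes (43.8%) and in 18 of 77 chemokines and cytokines (23.4%). Among those called higher it was present in 7 of 12 (58.3%) and 8 of 19 (42.1%). Of all genes called and at least 2-fold higher, 18.6% held it. Cxcl1 and Cxcl10, chemokines for neutrophils and T cells with the largest increases among members whose window holds the kB and interferon patterns, and Ifit1, an interferon-induced inhibitor of viral translation, show the layout. Capitals mark kB patterns in Cxcl1, both kinds in Cxcl10, and interferon-stimulated response elements (ISRE, GAAA, any 2 bases and GAAA, on either strand) in Ifit1.
Cxcl1 (chr5:90890995-90891244, + strand): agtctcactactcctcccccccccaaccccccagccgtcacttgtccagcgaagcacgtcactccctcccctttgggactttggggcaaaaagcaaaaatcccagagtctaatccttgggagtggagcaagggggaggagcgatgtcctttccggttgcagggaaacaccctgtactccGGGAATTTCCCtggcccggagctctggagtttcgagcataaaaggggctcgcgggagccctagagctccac
Cxcl10 (chr5:92348890-92349139, - strand): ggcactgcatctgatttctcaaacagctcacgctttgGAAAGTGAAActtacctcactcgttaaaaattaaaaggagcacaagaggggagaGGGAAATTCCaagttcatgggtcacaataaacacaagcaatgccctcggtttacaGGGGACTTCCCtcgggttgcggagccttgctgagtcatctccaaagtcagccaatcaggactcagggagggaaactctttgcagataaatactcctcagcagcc
Ifit1 (chr19:34640639-34640888, + strand): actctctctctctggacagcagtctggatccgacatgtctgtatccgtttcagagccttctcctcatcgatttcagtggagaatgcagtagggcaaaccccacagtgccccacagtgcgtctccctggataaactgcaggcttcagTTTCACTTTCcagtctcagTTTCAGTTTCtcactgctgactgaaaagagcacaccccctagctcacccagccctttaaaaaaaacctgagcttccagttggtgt
In Cxcl1 a pair of overlapping kB patterns spans 71 to 61 bases before the start, and Cxcl10 has kB patterns at 159 to 150 and, overlapping, at 104 to 94, with its ISRE at 213 to 204. The ISREs of Ifit1 lie at 104 to 95 and 85 to 76. A match describes the letters in these windows and is no measured binding site.

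Signalling from cytokine and interferon receptors changed at several steps. In the IRF, STAT and JAK list 31.4% of the genes were higher and 17.1% lower, against 7.76% and 17.1% of all genes. Of 35 members of the IRF, STAT and JAK list 11 rose and 6 fell, and 3 fell without unstimulated array 1, without unstimulated array 2, without LPS array 1 or after centring. The transcription factor Irf1 rose by 2.19 ± 0.074, Stat2 by 2.37 ± 0.41 and the kinase Jak2 by 2.00 ± 0.083, while Stat3 was not called at 0.03 ± 0.096. Irf8, a factor of the macrophage lineage, fell by 1.0 ± 0.17. Socs3, the inhibitor of IL-6 receptor signalling, read 7.79 and 7.67 without stimulus and 11.26 and 11.32 with LPS and rose by 3.56 ± 0.082 (adjusted p = 4.69e-09) in these cells without IL-10. Socs1 rose by 1.67 ± 0.38, with LPS array 1 at 9.05 and LPS array 2 at 7.45 (0.87 without LPS array 1), and Socs6 fell by 1.5 ± 0.13.

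Interferon-induced effectors had the largest median difference of the lists examined, 1.86 log2 over 74 measured genes, of which 52 rose and 1 fell. These genes code for proteins that bind viral RNA, block viral entry or attack vacuoles. Mx1, a GTPase against influenza-type viruses, read 7.79 and 5.34 without stimulus and 11.83 and 10.63 with LPS and rose by 4.67 ± 0.77. Ifit1 read 9.34 and 7.73 without stimulus and 12.88 and 12.35 with LPS and rose by 4.08 ± 0.48. Of 13 Mx, guanylate-binding and immunity-related GTPases 11 rose, with a median of 2.89, among them Gbp6 at 4.01 ± 0.55 (dim without stimulus) and Irgm2 at 3.45 ± 0.32. The antiviral enzymes Cmpk2 and Rsad2 (viperin) rose by 3.99 ± 0.41 and 3.37 ± 0.45, the deISGylase Usp18 by 3.60 ± 0.57 and the RNA sensor Ifih1 (MDA5) by 2.64 ± 0.24. Mavs, the mitochondrial adaptor of the RNA sensors, was the member that fell, by 0.95 ± 0.15.

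The replicates of a group stood apart in this list. Its mean level was 8.87 on unstimulated array 1 and 7.89 on unstimulated array 2, and 10.52 and 9.85 on the LPS arrays. For the 9 IFIT and OAS genes the means were 9.37 and 7.63 without stimulus and 11.44 and 10.46 with LPS. Differences with large standard errors that missed the threshold were those of Irf7 at 2.08 ± 0.73, Oas1a at 1.54 ± 0.54, Oas2 at 1.51 ± 0.52 and Ifi44l at 1.93 ± 0.75. Calls in this list numbered 39 higher without unstimulated array 2, 39 without LPS array 1, 58 without unstimulated array 1 and 55 without LPS array 2. What separates array 1 from array 2 in both groups was not tested. The ISRE was present in 18 of 57 promoters of this list (31.6%), in 10.4% of genes called and at least 2-fold higher, and in 3.35% of all 9887. Among the list members called higher it was present in 12 of 39 (30.8%), near the share of the whole list. Its presence thus did not set the called members apart from the rest of the list. The GAS pattern (TTC, any 3 bases and GAA) was present in 19.3% of the list and 7.31% of all.

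**Figure D2:**
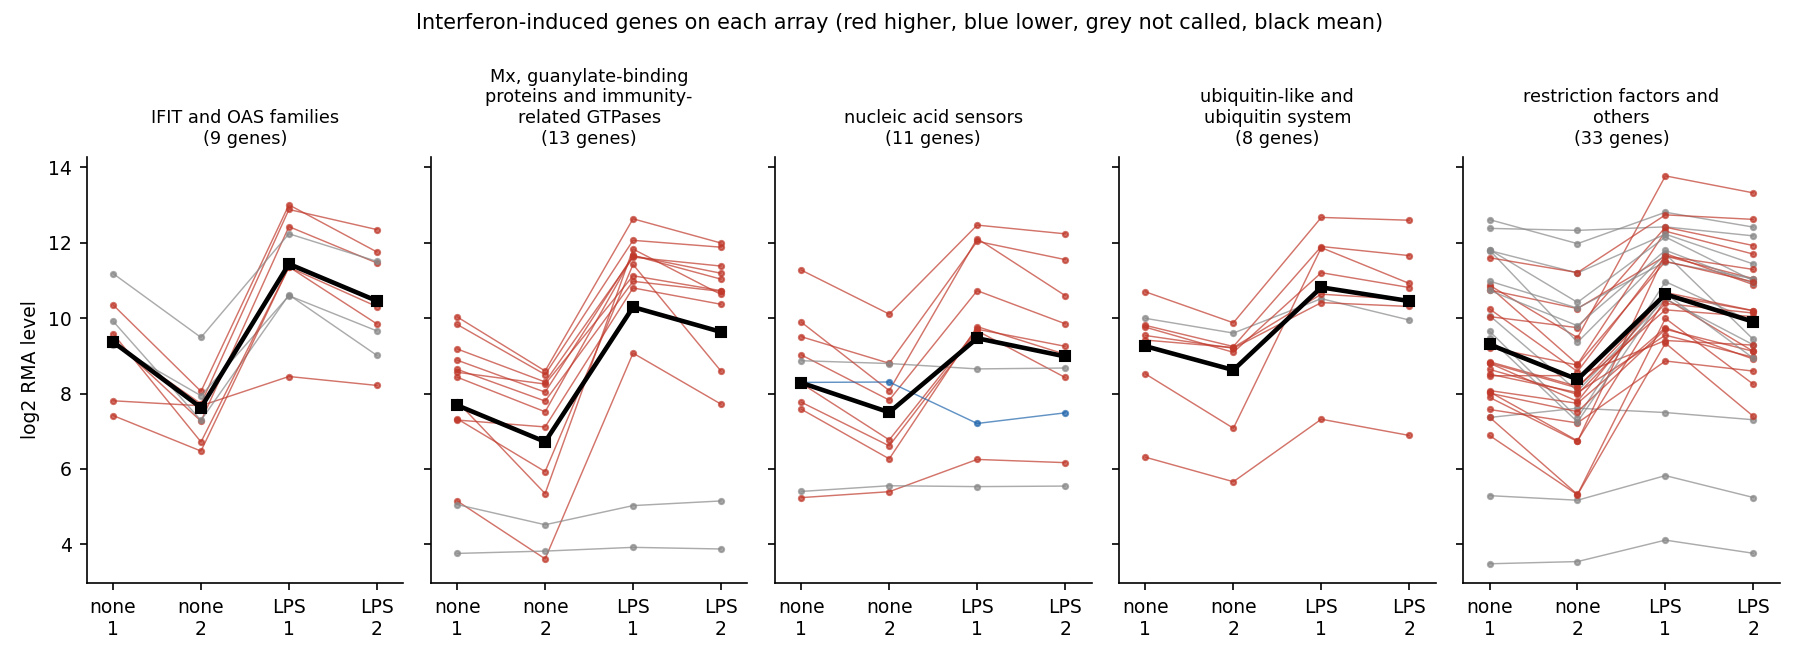
Log2 RMA levels of 74 interferon-induced genes on the 2 unstimulated arrays (none) and the 2 LPS arrays, split by role, with 1 thin line per gene, coloured by its call, and the mean as black squares. Array 1 lies above array 2 in both groups in every panel, and both LPS means lie above both unstimulated means.

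Genes of antigen presentation changed unevenly. Of 21 co-stimulatory and checkpoint genes 9 rose and 3 fell. Among all genes 7.76% were higher and 17.1% lower. The list thus held a larger share of increases, while its decreases were near the share of all genes. Icosl, the ligand of the T cell receptor ICOS, rose by 3.2 ± 0.15, the adhesion molecule Icam1 by 2.51 ± 0.13, the checkpoint ligand Cd274 (PD-L1) by 2.25 ± 0.19 and Cd83 by 1.23 ± 0.15. Cd80 and Cd86 were not called at 0.11 ± 0.12 and 0.02 ± 0.17, and the checkpoint receptor Vsir (VISTA) fell by 1.12 ± 0.11. Of 17 class I loading and immunoproteasome genes 5 rose (3 without unstimulated array 2, 9 without unstimulated array 1), the largest being the peptide transporter Tap1 at 2.14 ± 0.33, whereas B2m and H2-K1 were not called at 0.03 ± 0.12 and 0.05 ± 0.10. Of 13 genes of class II presentation 4 rose (2 without unstimulated array 2) and 2 fell. The decreases of class II presentation were also near the share of all genes. The class II genes H2-Aa, H2-Ab1 and Cd74 had differences of 0.33, 0.47 and 0.43 that were not called, and Cd74 read 12.14 and 11.02 without stimulus and 12.41 and 11.60 with LPS, so that array 1 stood above array 2 in both groups. Their regulator Rfx5 rose by 1.0 ± 0.13.

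Enzymes of lipid mediators, oxidants and nitric oxide rose at selected steps. Ptgs2 (COX-2) read 5.14 and 5.25 without stimulus and 7.88 and 7.72 with LPS, dim without stimulus, and rose by 2.61 ± 0.18, and the next enzyme, Ptges, rose by 1.72 ± 0.18. The prostacyclin receptor Ptgir rose by 1.76 ± 0.19. Of 14 genes of prostaglandin synthesis and receptors 3 rose and 3 fell. Of 13 phospholipases and leukotriene genes 0 rose and 3 fell, 1 fell without unstimulated array 2 or without LPS array 1, 1 rose without LPS array 2, and after centring 2 rose and 2 fell. Acod1, which makes itaconate, read 10.73 and 9.55 without stimulus and 13.65 and 13.71 with LPS and rose by 3.54 ± 0.27. Gch1, the first enzyme of the nitric oxide synthase cofactor biopterin, rose by 2.40 ± 0.093 and the arginine transporter Slc7a2 by 0.95 ± 0.14. Nos2 itself read 5.95 and 5.93 without stimulus and 6.76 and 6.32 with LPS, and its call was lost without unstimulated array 1, without unstimulated array 2 and without LPS array 1 (highest adjusted p = 0.23, with a difference of 0.38 without LPS array 1). The NADPH oxidase subunit Cybb rose by 1.28 ± 0.21 and the dismutase Sod2 by 1.57 ± 0.094.

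At 4 h the MAP kinase list held more decreases than increases, 17 against 11 of 69 genes (11 decreases without LPS array 1, 18 increases without LPS array 2). These are 24.6% lower and 15.9% higher, against 17.1% and 7.76% of all genes, and after centring 15 fell and 16 rose. The kinase Mknk2, which phosphorylates the cap-binding protein, read 11.59 and 11.60 without stimulus and 9.09 and 9.45 with LPS and fell by 2.32 ± 0.16. Map3k1 fell by 1.13 ± 0.14, while Map3k8, the activator of ERK in the LPS response, rose by 1.02 ± 0.20 (0.65 without LPS array 1) and the p38 substrate Mapkapk2 by 1.15 ± 0.094. The phosphatase Dusp2 read 7.24 and 7.45 without stimulus and 10.46 and 10.04 with LPS and rose by 2.91 ± 0.16, Dusp16 rose by 1.92 ± 0.091 and the ERK inhibitors Spred1 and Spred2 by 1.99 ± 0.13 and 1.51 ± 0.083. Dusp1 was not called at -0.13 ± 0.12, and Dusp6 fell by 0.77 ± 0.13. The early factors Fos and Nr4a1 were below their unstimulated level by 1.13 ± 0.23 and 1.33 ± 0.11, with Fos at 11.20 and 10.89 without stimulus and 10.33 and 9.50 with LPS (a difference of -0.71 without LPS array 2). Junb and Maff rose by 1.11 ± 0.15 and 2.22 ± 0.17. Among genes of mRNA decay, Zfp36l2 and Zfp36l1 fell by 1.44 ± 0.13 and 1.19 ± 0.19 and the deadenylation partner Tob1 by 1.15 ± 0.14, whereas Zc3h12a (Regnase-1) and Xrn1 rose by 1.09 ± 0.080 and 0.89 ± 0.12.

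Transcription factors of the myeloid lineage were split, with 23 of 79 higher and 22 lower. Klf7, Ets2, Tfec and Cebpd rose by 2.54 ± 0.12, 2.27 ± 0.11, 2.03 ± 0.18 and 1.86 ± 0.12. Gfi1, a transcriptional repressor, read 4.63 and 4.76 without stimulus and 7.23 and 7.88 with LPS and rose by 2.86 ± 0.19 from a dim level. The lineage factor Spi1 (PU.1) rose by 0.68 ± 0.094. Mef2d, Id3 and Mef2c fell by 1.82 ± 0.19, 1.26 ± 0.19 and 1.07 ± 0.15. Nuclear receptors fell more often than they rose, 8 against 3 of 19 (1 rose without unstimulated array 2 and 5 without LPS array 2). Pparg, the lipid-sensing receptor of resident macrophages, read 7.90 and 8.0 without stimulus and 6.72 and 6.58 with LPS and fell by 1.30 ± 0.082, and Rxra, its dimer partner, read 9.82 and 9.82 without stimulus and 8.23 and 8.48 with LPS and fell by 1.47 ± 0.11.

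Single surface receptors had large changes in both directions. Of 75 cytokine and chemokine receptors 8 rose and 11 fell (15 rose without LPS array 2, and 7 fell after centring). These shares, 10.7% and 14.7%, were near those of all genes, 7.76% and 17.1%. Cxcr4, the marrow-retention receptor, read 12.40 and 12.33 without stimulus and 10.51 and 10.76 with LPS and fell by 1.73 ± 0.19. The IL-6 receptor chain Il6ra read 9.23 and 9.43 without stimulus and 7.65 and 7.67 with LPS and fell by 1.67 ± 0.15, and Tnfrsf21 and Il7r fell by 1.46 ± 0.12 and 1.12 ± 0.20. The atypical chemokine receptor Ccrl2, the death receptor Fas and Il15ra rose by 2.91 ± 0.11, 2.25 ± 0.11 and 1.32 ± 0.22. The growth factor receptor Csf1r was not called at -0.03 ± 0.073, with levels of 13.55 to 13.60 log2. Of 32 G-protein-coupled receptors for purines, lipids and other ligands 8 rose and 6 fell. Fpr2, a receptor for formyl peptides, read 8.90 and 7.89 without stimulus and 12.40 and 11.93 with LPS and rose by 3.77 ± 0.32, and the fatty acid and niacin receptors Gpr84 and Hcar2 rose by 3.07 ± 0.22 and 2.11 ± 0.27. The egress receptor S1pr1 fell by 1.17 ± 0.11. Of 28 regulators of G-protein signalling and cAMP 10 fell and 4 rose, with Rgs2, which switches off Gq, at 11.66 and 11.45 without stimulus and 9.48 and 8.91 with LPS and lower by 2.36 ± 0.17, and the cAMP phosphodiesterase Pde4b higher by 1.86 ± 0.14.

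Uptake, adhesion and matrix genes changed in both directions. Of 67 uptake receptors 12 rose and 12 fell, which is 17.9% in each direction. Over all genes 7.76% were higher and 17.1% lower, so the decreases were near the share of all genes. The oxidised lipoprotein receptor Olr1 rose by 3.04 ± 0.25 (dim without stimulus), and the lectins Clec4e (Mincle) and Clec5a rose by 2.41 ± 0.083 and 2.32 ± 0.23. Itgb5, an integrin chain used to take up dying cells, fell by 1.15 ± 0.070 and the inhibitory receptor Cd300a by 0.96 ± 0.094. Complement component C1qa was not called at 0.06 ± 0.23. Among adhesion genes, the matrix protein Thbs1 read 10.87 and 11.16 without stimulus and 9.50 and 9.10 with LPS and fell by 1.72 ± 0.22 and Itga6 fell by 1.06 ± 0.17, while Itga4, Vcam1 and Itga5 rose by 1.59 ± 0.22, 1.43 ± 0.24 and 1.09 ± 0.13. The actin-binding protein Enc1, at 11.39 and 11.36 without stimulus and 8.76 and 9.02 with LPS, fell by 2.48 ± 0.095. The collagenases Mmp13 and Mmp14 rose by 2.83 ± 0.29 and 1.93 ± 0.31, the urokinase receptor Plaur by 1.08 ± 0.13 and coagulation factor F10 by 1.49 ± 0.18. The anticoagulant receptor Thbd fell by 1.75 ± 0.19 to a dim level.

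Lysosome and autophagy genes fell more often than they rose, in small steps. Of 83 measured genes 36 fell and 5 rose, with a median of -0.26, against 17.1% lower and a median of -0.01 over all genes. The decreases numbered 22 without unstimulated array 1, 23 without unstimulated array 2 and 23 without LPS array 1, and the increases 2 without unstimulated array 2. The heparan sulfatase Sgsh read 9.49 and 9.44 without stimulus and 7.66 and 7.65 with LPS and fell by 1.81 ± 0.089, the lysosomal phospholipase Pla2g15 read 10.93 and 10.64 without stimulus and 9.58 and 9.44 with LPS and fell by 1.28 ± 0.12, and Manba and Gusb, hydrolases of sugar chains, fell by 1.10 ± 0.14 and 0.48 ± 0.084. The abundant Ctsd, Ctsb and Lamp1 read 13.21 to 13.82 log2 on all 4 arrays, near the top of the scale, with differences of -0.12, -0.03 and -0.12 that were not called. The acid phosphatase Acp5 rose by 1.52 ± 0.32, with unstimulated array 1 at 9.34 and array 2 at 7.91, and by 0.81 without unstimulated array 2. Of 26 autophagy genes 13 fell and 2 rose, and 1 rose without unstimulated array 2. The cargo receptor Nbr1 fell by 1.38 ± 0.11 and the initiating kinases Ulk1 and Ulk2 by 1.11 ± 0.13 and 1.0 ± 0.10, whereas the cargo receptor Sqstm1 (p62) rose by 0.66 ± 0.090.

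Many lysosomal genes share a promoter element, the E-box CACGTG, letters that factors of the MiT/TFE family can bind. It was present in 20 of 69 promoters of this list (29.0%), against 9.19% of all 9887 and 10.2% of genes called and at least 2-fold lower. Sgsh, the lysosomal gene with the largest decrease, holds it 29 to 24 bases before its start (capitals).
Sgsh (chr11:119355511-119355760, - strand): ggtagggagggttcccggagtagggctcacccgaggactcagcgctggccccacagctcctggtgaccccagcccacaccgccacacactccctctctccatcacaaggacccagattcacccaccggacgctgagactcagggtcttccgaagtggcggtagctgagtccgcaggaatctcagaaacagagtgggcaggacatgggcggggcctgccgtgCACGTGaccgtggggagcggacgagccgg
Measured members of that factor family moved apart. Tfeb fell by 0.63 ± 0.098, while Mitf rose by 1.04 ± 0.077 and Tfec by 2.03 ± 0.18.

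Lipid and energy metabolism also changed by branch. Of 22 genes of cholesterol synthesis and uptake 10 rose (6 without LPS array 2) and 2 fell (0 without unstimulated array 2 or without LPS array 1, and 1 without unstimulated array 1 or after centring). The isomerase Idi1, Cyp51, Sc5d and the regulator Srebf2 rose by 1.40 ± 0.22, 1.34 ± 0.25, 1.17 ± 0.22 and 0.99 ± 0.13. Of 25 genes of fatty acid and glycerolipid synthesis 9 fell and 2 rose (1 without unstimulated array 2). The phosphatidate phosphatase Lpin1 read 9.88 and 10.18 without stimulus and 7.15 and 7.79 with LPS and fell by 2.56 ± 0.25, and Pcyt1a, of phosphatidylcholine synthesis, fell by 1.06 ± 0.11. Of 25 genes of fatty acid oxidation 13 fell and 1 rose, with a median of -0.31, and 7 fell without unstimulated array 2 and 8 without LPS array 1. The dehydrogenases Acadm and Etfdh fell by 0.95 ± 0.11 and 0.65 ± 0.090. The 2 main glucose transporters moved apart, with Slc2a1 at 9.07 and 8.99 without stimulus and 10.27 and 10.36 with LPS and higher by 1.28 ± 0.12, and Slc2a3 at 8.44 and 8.72 without stimulus and 6.98 and 7.33 with LPS and lower by 1.42 ± 0.20. Of 21 glycolytic genes 6 rose and 3 fell, and Ldha was not called at -0.28 ± 0.099. Of 26 genes of the tricarboxylic acid cycle 10 fell and 1 rose, but 3 fell without unstimulated array 2 and 4 without LPS array 1, and 2 rose without LPS array 1 or after centring. The subunits Idh3b and Sdhb fell by 0.45 ± 0.087 and 0.39 ± 0.075.

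Nutrient and stress genes changed in both directions. Of 28 ATF4 targets, transporters and tRNA synthetases 9 rose and 2 fell (0 fell without unstimulated array 2, and 1 without LPS array 2 or after centring). The cystine importer Slc7a11 rose by 2.15 ± 0.24, the glutathione-degrading enzyme Chac1 by 1.69 ± 0.22 and asparagine synthetase Asns by 1.36 ± 0.25. The folate enzyme Mthfd2 and the NAD-salvage enzyme Nampt rose by 1.61 ± 0.22 and 1.13 ± 0.095, and the thioredoxin reductase Txnrd1 by 1.03 ± 0.14. Of 23 genes of metal handling 5 rose (21.7%) and 4 fell (17.4%), with a median of 0.03. Over all genes 7.76% were higher and 17.1% lower, so these decreases were near the share of all genes. The iron exporter Slc40a1 (ferroportin) read 10.76 and 10.83 without stimulus and 8.11 and 8.62 with LPS and fell by 2.43 ± 0.21. The metal transporters Slc39a14, Slc31a2 and Slc31a1 rose by 1.13 ± 0.14, 1.33 ± 0.089 and 1.15 ± 0.13. Mt1, a metallothionein, was not called at -0.75 ± 0.25. The inducible chaperone Hspa1b rose by 1.74 ± 0.25, Hsph1 fell by 0.92 ± 0.18, and the endoplasmic reticulum sensor kinase Eif2ak3 (PERK) fell by 0.98 ± 0.15.

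**Figure D3:**
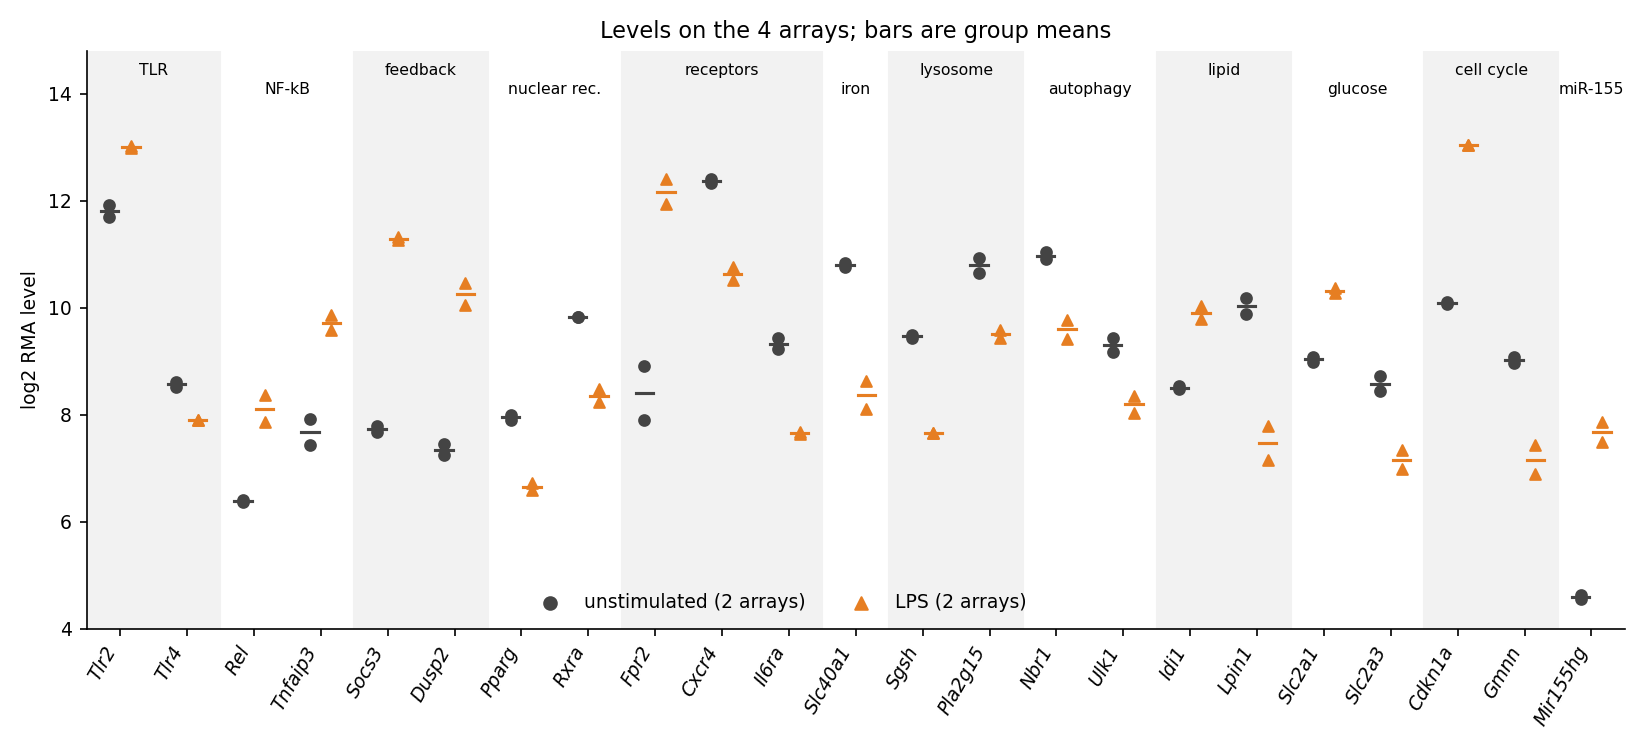
Log2 RMA levels of 23 genes on the 2 unstimulated arrays (grey circles) and the 2 LPS arrays (orange triangles), with bars at the group means. The 23 genes were picked from called genes named in the text. For all of them the arrays of the groups do not overlap, which held for 57.3% of all genes. Some members of a pathway move apart, as Slc2a1 rises by 1.28 while Slc2a3 falls by 1.42.

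Genes of cell division and genome upkeep fell more often than they rose, as all genes did. In this list 31.65% were lower, against 17.1% of all genes, and 6.5% were higher, near the 7.76% of all genes. Of 139 genes 44 fell and 9 rose, with a median of -0.19, and 27 fell without LPS array 1. The replication inhibitor Gmnn (geminin) read 8.97 and 9.08 without stimulus and 6.90 and 7.42 with LPS and fell by 1.86 ± 0.17, and the replicative helicase subunits Mcm7 and Mcm6 fell by 1.58 ± 0.14 and 0.86 ± 0.10. Of 39 replication genes 18 fell and 2 rose, and 1 rose without unstimulated array 1, without unstimulated array 2 or without LPS array 1. Of 31 DNA repair genes 11 fell and 0 rose (1 rose without LPS array 1), led by the checkpoint kinase Chek2, the damage sensor Xpc and the mismatch protein Msh6 at -1.48 ± 0.22, -1.44 ± 0.15 and -1.43 ± 0.14, the last one dim with LPS. The CDK inhibitor Cdkn1a (p21) read 10.11 and 10.07 without stimulus and 13.03 and 13.03 with LPS and rose by 2.94 ± 0.10, whereas Cdkn1b (p27) fell by 0.81 ± 0.13. The centromere histone Cenpa fell by 1.53 ± 0.31. Mki67, widely used as a mark of proliferation, went the other way, at 9.10 and 9.73 without stimulus and 11.01 and 11.55 with LPS and higher by 1.87 ± 0.26, and Top2a was not called at -0.10 ± 0.29.

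Genes of cell death rose more often than they fell, 16 against 6 of 51. The caspase-8 inhibitor Cflar read 9.14 and 9.25 without stimulus and 11.47 and 11.49 with LPS and rose by 2.29 ± 0.086, and the inhibitors Birc2 and Birc3 rose by 1.61 ± 0.10 and 1.19 ± 0.093. The LPS-sensing Casp4 (caspase-11) rose by 1.84 ± 0.22 and Casp1 by 1.05 ± 0.086, while Casp2 and Casp9 fell by 1.03 ± 0.14 and 1.0 ± 0.13. Of 16 inflammasome, pyroptosis and necroptosis genes 8 rose and 2 fell. The sensors Nlrp3 and Mefv rose by 2.26 ± 0.15 and 2.2 ± 0.17, and their adaptor Pycard (ASC) fell by 0.50 ± 0.085. Bcl2l1 and Mcl1 were not called at -0.04 ± 0.10 and -0.05 ± 0.069.

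Chromatin regulators fell more often than they rose, as all genes did, with 31.5% lower and 2.74% higher against 17.1% and 7.76% of all genes. Of 73 chromatin regulators 23 fell and 2 rose, and 14 fell without unstimulated array 1 or after centring, 12 without unstimulated array 2 and 10 without LPS array 1. The number that rose was 1 without unstimulated array 1 and 6 after centring. Of 113 genes of transcription, RNA and protein synthesis 17 rose and 14 fell, with a median of 0.00, and the counts were 26 and 12 after centring, 11 and 8 without unstimulated array 2 and 20 and 9 without LPS array 1. The deacetylase Hdac5 read 9.71 and 9.90 without stimulus and 8.15 and 8.07 with LPS and fell by 1.70 ± 0.11, the demethylase Kdm2b by 1.34 ± 0.15, the mitochondrial deacetylase Sirt3 by 1.25 ± 0.10 and the DNA methyltransferases Dnmt1 and Dnmt3a by 1.22 ± 0.10 and 0.63 ± 0.12. The translation inhibitor Pdcd4, a target of miR-21 in LPS-treated macrophages, fell by 2.10 ± 0.17. Among smaller signalling lists, the kinases Src and Pim1 rose by 2.18 ± 0.15 and 1.88 ± 0.14, the lipid phosphatase Inpp5d (SHIP1) and the factor Foxo3 fell by 1.13 ± 0.081 and 1.51 ± 0.17, and the TGF beta pathway repressor Ski fell by 1.32 ± 0.092. The late endosomal GTPase Rab7b, which routes Toll-like receptor 4 to degradation, fell by 2.21 ± 0.12, and the Notch ligand Jag1 and the Notch factor Rbpj rose by 1.28 ± 0.18 and 1.08 ± 0.075.

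**Figure D4:**
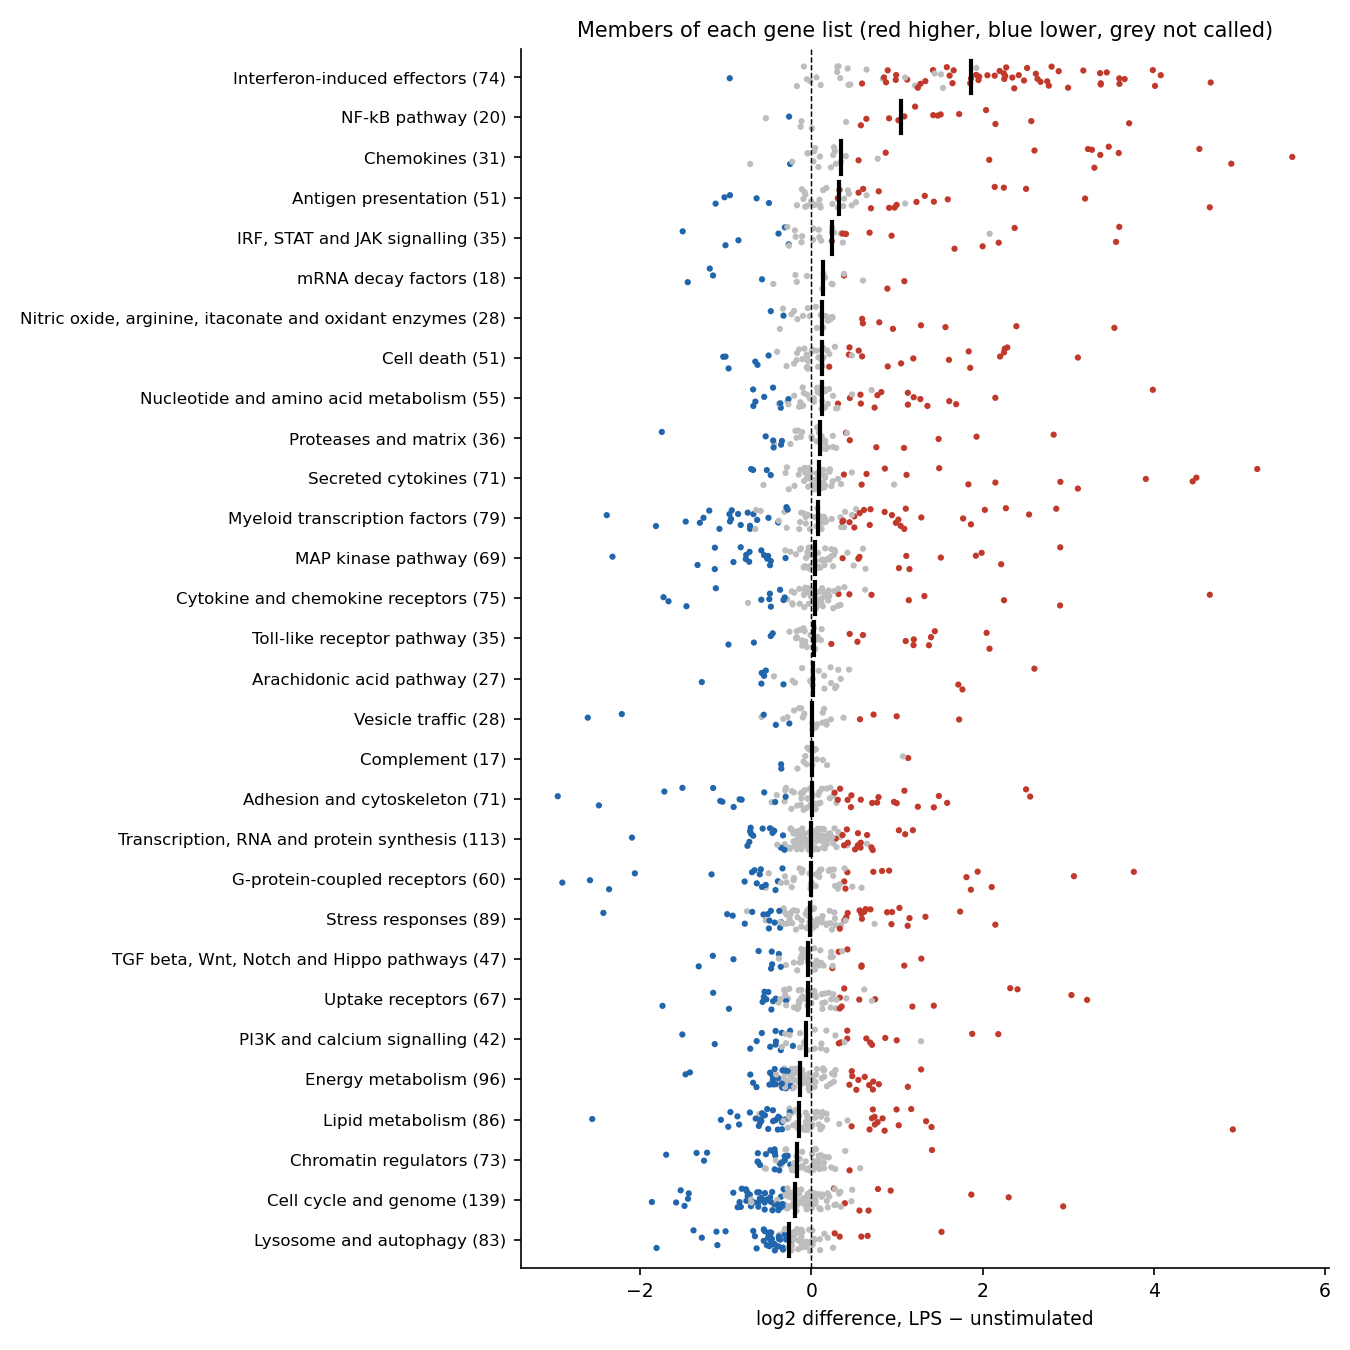
Each point is a measured member of a gene list (its number in brackets), at its log2 difference on the x axis, coloured by its call, with black bars at list medians and a dashed line at the median of all genes. Interferon-induced effectors (median 1.86) stand at one end and lysosome and autophagy genes (median -0.26) at the other.

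Several symbol families also held more decreases than increases, as did all genes, with 17.1% lower and 7.76% higher. The shares lower were 33.8% of mitochondrial ribosomal proteins, 33.3% of complex I subunits, 31.2% of numbered zinc finger genes and 41.7% of F-box genes. Some small families mostly rose instead. Higher were 4 of 5 schlafens (0 lower), 5 of 10 poly(ADP-ribose) polymerases (2 lower) and 4 of 9 Toll-like receptors (1 lower). Of 74 mitochondrial ribosomal proteins 25 fell and 2 rose, with a median of -0.22, and 14 fell without unstimulated array 2 and 12 without LPS array 1. Mrpl41 and Mrpl2 fell by 0.93 ± 0.10 and 0.75 ± 0.12, and Mrpl39 and Mrpl52 rose by 0.53 ± 0.10 and 0.46 ± 0.090. Of 48 cytoplasmic ribosomal proteins 0 rose and 1 fell (0 fell and 1 rose after centring or without LPS array 1, 0 fell without either unstimulated array and 2 fell without LPS array 2). Of 33 complex I subunits 11 fell and 1 rose, and 4 fell after centring or without unstimulated array 2, 5 without unstimulated array 1 and 6 without LPS array 1. Of 173 numbered zinc finger genes 54 fell and 5 rose, with 32, 34 and 27 decreases without unstimulated array 1, without unstimulated array 2 and without LPS array 1. The increases of that family were 1 to 3 without each of these arrays and 10 after centring, and the largest changes were the increase of Zfp131 at 1.98 ± 0.10 and the decreases of Zfp36l2, given above, and Zfp703 at -1.36 ± 0.12. Of 36 F-box genes, substrate receptors of ubiquitin ligases, 15 fell and 1 rose (0 rose without either unstimulated array or without LPS array 1, and 2 without LPS array 2), with Fbxw7 at -1.2 ± 0.19 and Fbxw4 at -1.0 ± 0.11. Of 39 proteasome subunits 7 rose and 0 fell (3 rose without unstimulated array 2, 12 after centring, and 2 fell without LPS array 2), led by the assembly chaperone Psmd10 at 1.12 ± 0.082.

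**Figure D5:**
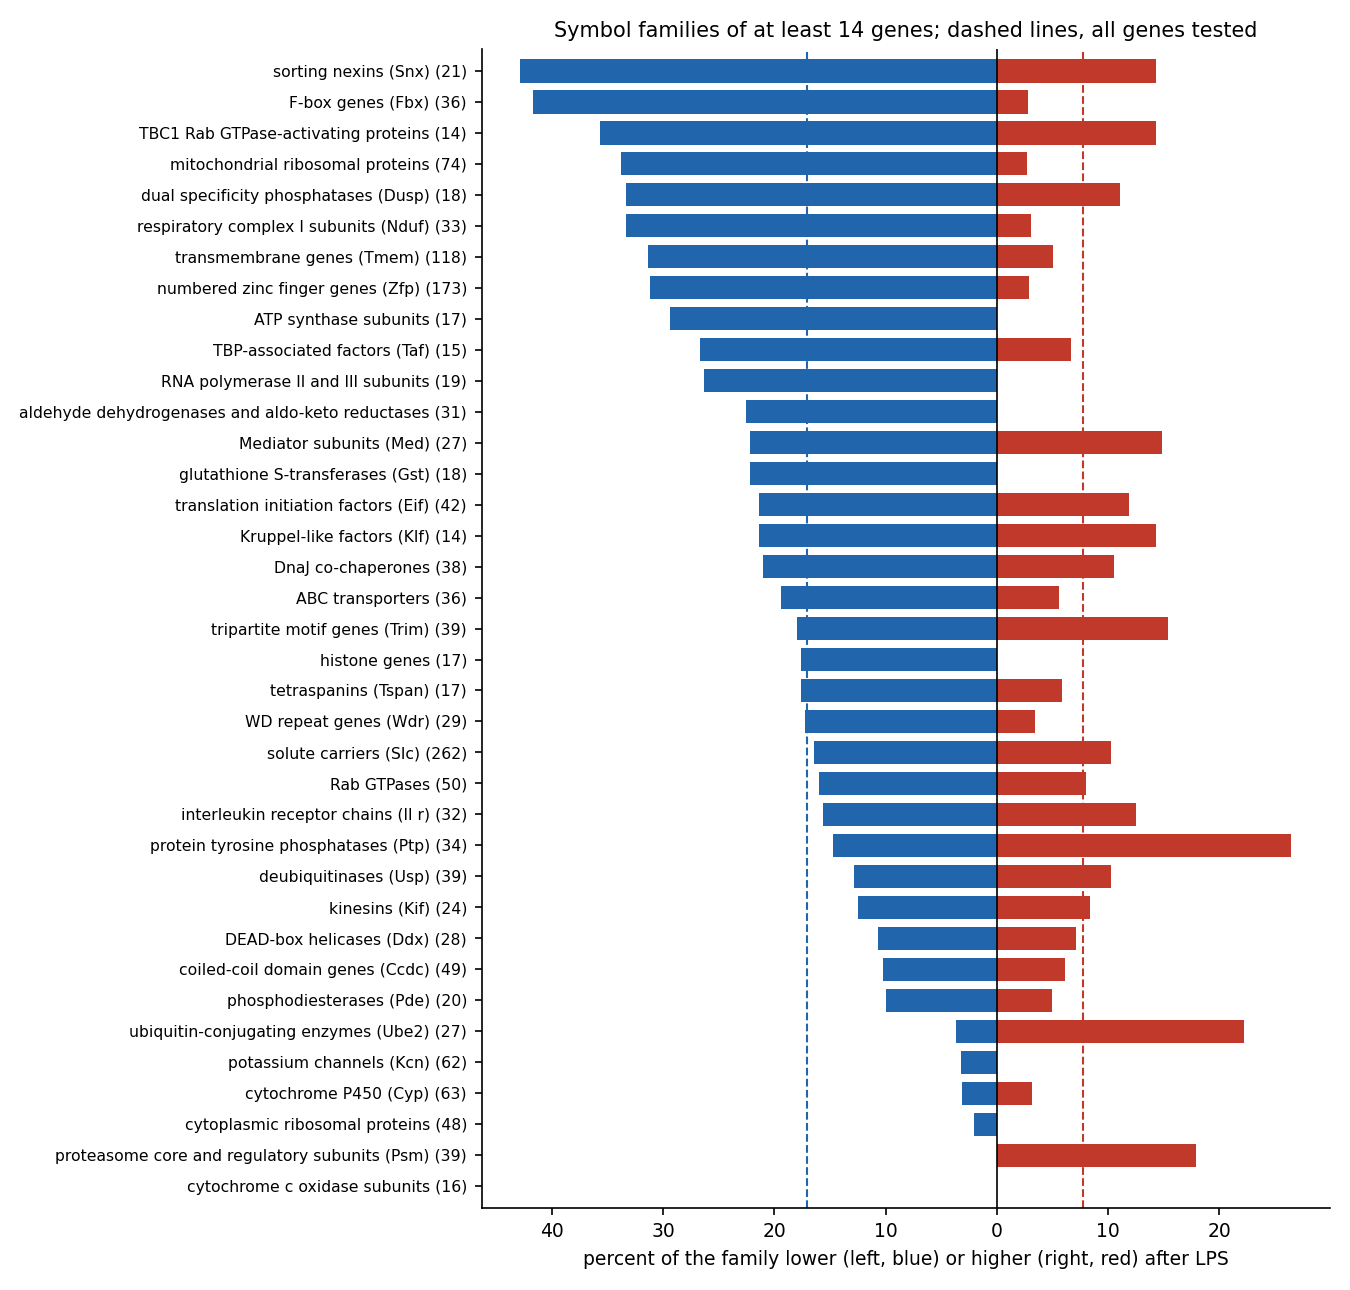
Percent of symbol families of at least 14 measured genes (number in brackets) called lower (blue, left) or higher (red, right) after LPS. Dashed lines mark all genes tested, 17.1% lower and 7.76% higher. Many families pass the line for decreases, with sorting nexins (42.9%) and F-box genes (41.7%) furthest and mitochondrial ribosomal proteins (33.8%) among the others.

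Several genes outside all lists changed as strongly as their members. Mir155hg, the host transcript of miR-155, read 4.55 and 4.62 without stimulus and 7.86 and 7.49 with LPS, dim without stimulus, and rose by 3.09 ± 0.19 (adjusted p = 2.3e-06). miR-155 is induced by Toll-like receptors and targets Inpp5d and other restraints in macrophages. The array reads the host transcript and not the mature miRNAs, whose sequences follow with their seeds (bases 2 to 8) in capitals, at chromosome 16, + strand of GRCm38.p6.
mmu-miR-155-5p (16:84714143-84714165): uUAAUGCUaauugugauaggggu
mmu-miR-155-3p (chr16:84714182-84714202): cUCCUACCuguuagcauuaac
Of the 1738 mature mouse miRNAs in the RefSeq table, 0 others share either seed. The long noncoding RNA AW112010 rose by 3.65 ± 0.48, with unstimulated array 1 at 9.73 and array 2 at 7.78. The nucleotidase Nt5c3, the helicase Helz2, the stress factor Nupr1, the acute phase protein Saa3 and the adaptor Lcp2 (SLP-76) rose by 2.94 ± 0.28, 2.76 ± 0.31, 2.63 ± 0.17, 2.26 ± 0.34 and 2.23 ± 0.12. Gm9706 and Gca rose by 2.94 ± 0.36 and 2.39 ± 0.17 from dim levels, Zup1 and Gsap rose by 2.37 ± 0.15 and 2.19 ± 0.16, and Ddx60 rose by 2.2 ± 0.64 but was not called without unstimulated array 2 or without LPS array 1 (highest adjusted p 0.222), with differences of 1.45 and 1.43. Decreases were led by the clock output factor Dbp at -2.55 ± 0.24, the ceramide kinase Cerk at -2.34 ± 0.20, Eepd1 at -2.31 ± 0.22, Bbip1 at -2.26 ± 0.11, Rassf3 at -2.23 ± 0.11 and Sbk1 at -2.17 ± 0.19. Skp2, the receptor that marks Cdkn1b for destruction, fell by 2.11 ± 0.29, and all 6 of its probe sets were called lower. The glucocorticoid-induced Tsc22d3 (GILZ) read 10.26 and 10.29 without stimulus and 8.26 and 8.26 with LPS and fell by 2.02 ± 0.13, and Cipc, Rab3il1 and Trp53inp1 fell by 2.11 ± 0.19, 2.02 ± 0.12 and 1.99 ± 0.17. Ncapg2, at -1.98 ± 0.62, was not called without unstimulated array 1 or without LPS array 2 (highest adjusted p 0.292), when its differences were -0.98 and -1.23, and -2.97 without unstimulated array 2.

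Set beside the same treatment of p50-/-IL10-/- cells, which share no arrays with this comparison, the response had these counts. In those cells 1273 genes rose (10.3%) and 2739 fell (22.1%). The interferon-induced list had 52 increases there as well, with a median of 1.56, the NF-kB list 14 increases and a median of 1.03, and the lysosome and autophagy list 38 decreases and a median of -0.28. The difference between the responses was called for 147 genes (1.19%), 55 of them among the 1720 list members. Other lists had unlike counts, which were not tested as lists. Of the 22 genes of cholesterol synthesis and uptake 3 rose and 3 fell in p50-/-IL10-/- cells, with a median of -0.06, against 10 and 2 with a median of 0.30, and 0 of the 22 had a called difference. Of the 21 glycolytic genes 4 rose and 10 fell in p50-/-IL10-/- cells, against 6 and 3, and 4 had a called difference. These were the neuronal-type enolase Eno2, which rose by 0.72 ± 0.18 in IL10-/- cells but was not called without unstimulated array 1 or without LPS array 2 (a difference of 0.46 without the latter, highest adjusted p = 0.0706), Slc16a3, a lactate exporter, and Pfkl, a phosphofructokinase, which rose by 0.79 ± 0.11 and 0.55 ± 0.085, and the hexokinase Hk2, which was not called at 0.18 ± 0.098. Equality of the other responses is not shown by this.

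Of 270 genes given with values, 233 were called, and 227 of these kept their call whichever of the 4 arrays was left out. Of the 233, 115 have several probe sets on the array. All probe sets of 85 genes were called the same way, 30 genes had some that were not called, and 0 had probe sets called both ways. Cross-hybridisation is possible for 20 of the named genes, whose probe sets carry names that mark probes shared with related sequences, namely Cipc, Dbp, Gca, Gm9706, H2-Aa, H2-Ab1, H2-K1, Idh3b, Itga5, Itgb5, Mcl1, Mcm7, Mt1, Nfkbib, Nupr1, Rab3il1, Slc2a3, Src, Tlr3 and Tnfrsf21. Sbk1, Thbd and Msh6 were dim with LPS.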

How the data were processed

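Gene expression was measured on 12 Affymetrix arrays in 6 groups of 2. The authors deposited log2 values, and the submitters' processing notes name RMA, which corrects background, quantile-normalises and summarises probes, and limma, without versions. RMA gives the arrays nearly the same distribution (medians 7.20 to 7.34), so a shift of all genes in 1 direction is not visible. Of 22690 probe sets, 64 controls, 691 with several gene symbols and 1555 with none were left out, and 20351 of the other 20380 matched a RefSeq gene. Each of 12393 genes was read from its brightest probe set, by mean level in all 12 arrays, 4956 of which have several. The build used for annotating probes is not given in the sources available here. Nfkb1, the gene for p50, was not analysed here.

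Differences were tested with limma 3.58.1 in R 4.3.3, with one mean per group over the 12 arrays (6 residual and 4.47 prior degrees of freedom), two-sided, with Benjamini-Hochberg adjustment over all genes, and the script was tested on simulated data. The median SE was 0.0998 log2, a precision set by the number of arrays. With 2 arrays against 2 an exact permutation test cannot go below p = 0.333. The members and lists were chosen with earlier results of these data known. Any list member could be named, and the members named are not always those with the largest differences of a list. Members with larger differences were left out of some lists. Among others, these reached 5.21 in the interleukin 12 family, 4.92 among sterol efflux and oxysterol genes and 4.91 among CC and other chemokines. They also reached 4.66 among TNF receptors and among co-stimulatory and checkpoint genes. Decreases reached -2.96 among integrins and adhesion genes and -2.91 among purinergic, lipid and orphan receptors. The 12 largest increases and decreases outside the lists and up to 2 in each direction per symbol family were named as well. The clock genes and the glycolytic genes that differed between genotypes were added after their values were seen. Figures were drawn with matplotlib 3.10.9. Promoters (250 bases before the start) and miRNAs came from RefSeq (GRCm38.p6), and 9887 genes (79.8%) had a promoter. Alternatives changed the arrays in the fit, variance trend, centring, dim genes, probe sets, replicate block, minimum change and the arrays left out.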

Additional observations from a re-analysis of the deposited data

Results flagged for a closer look

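For 20 named genes the LPS response of p50-/-IL10-/- cells differed from that of IL10-/- cells by limma's test of the difference itself (adjusted p from 0.00151 to 0.0470). Over all 12393 genes 147 had such a called difference (1.19%). Differences are the response with p50 absent minus the response with p50 present, in log2. Of the 18 dual-specificity phosphatases 2 had such a difference, Dusp1 at -1.77 (a response of -0.13 in IL10-/- cells and -1.90 in p50-/-IL10-/- cells) and Dusp6 at -1.30 (-0.77 and -2.07). Other early genes had lower responses in p50-/-IL10-/- cells as well, with Fos at -1.87 (-1.13 and -3.00) and the factor Cebpd at -1.23 (1.86 and 0.64). Nr4a1 went the other way at 0.79 (-1.33 and -0.54).

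Among receptors and survival genes, Cxcr4 differed by -1.56 (-1.73 and -3.28), the lectin Clec4e by -0.91 (2.41 and 1.5), the survival gene Bcl2l1 by -0.91 (-0.04 and -0.95), the cargo receptor Sqstm1 by -0.74 (0.66 and -0.09) and the actin-binding Enc1 by -0.74 (-2.48 and -3.22). Larger increases with p50 absent were those of the IkB protein Nfkbie at 1.37 (2.15 and 3.52), Ifnb1 at 1.48 (0.59 and 2.06), Gca at 1.64 (2.39 and 4.03), Gfi1 at 1.33 (2.86 and 4.19) and the signal of the Il10 probes at 1.39 (0.86 and 2.25), in cells of both genotypes that carry the Il10 deletion. Of the glycolytic genes, Eno2 differed by -2.65 (0.72 and -1.93), Pfkl by -0.92 (0.55 and -0.37), Slc16a3 by -0.75 (0.79 and 0.03) and Hk2 by 1.08 (0.18 and 1.26), and the clock-related repressor Nfil3 by 1.88 (-0.38 and 1.49). These last 5 genes were named after their values were seen.

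Dusp1, Clec4e, Nfkbie, Eno2, Pfkl, Hk2 and Nfil3 kept this call whichever of the 8 arrays was left out, and the other 13 lost it in at least 1 of these fits (highest adjusted p from 0.0517 to 0.203). The arrays whose removal ended most of the calls were those of p50-/-IL10-/- cells, with 12 of 20 lost without unstimulated array 1 and 11 each without unstimulated array 2 and LPS array 1, against 3 without LPS array 2. For IL10-/- cells the numbers were 7 and 9 without unstimulated arrays 1 and 2, and 2 and 7 without LPS arrays 1 and 2.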

How the results depend on the processing

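The total of 3078 called genes became 1914 with only the 4 compared arrays in the fit, 1237 with limma's test against a 1.2-fold change and 570 with a 2-fold minimum, and lay between 1950 and 3551 with 1 array left out. The 962 increases became 1512 after centring, 501 and 328 under these minimum changes, and 657 to 1183 with 1 array left out. The 2116 decreases became 1251 in the 4 arrays, 736 and 242 under the minimum changes, and 1293 to 2368. The 147 genes with a different response between genotypes became 37 and 79, and 32 to 255 with 1 of 8 arrays left out. Of 3441 values of named genes under the alternatives, 3324 kept direction and side of the threshold, 83 lost and 34 gained a call, and 0 reversed.

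With the replicate number as a block, 3366 genes were called (1057 higher, 2309 lower), 2992 of them also without it, and 199 genes differed between genotypes. Same-numbered unstimulated and LPS arrays deviated together over all genes (correlation 0.398, and 0.595 and 0.586 with the arrays given LPS and IL-10), but the labels do not say what a number marks and there are 2, so no pairing was assumed.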

Other observations

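Genes of the circadian clock were looked at after Dbp and Cipc had appeared among the largest decreases, so the list of 18 was chosen after its values were seen and is described without a test. The clock is a loop in which CLOCK and BMAL1 (Arntl) switch on their own repressors, the PER and CRY proteins, and output genes such as Dbp. Of the 18 genes, 7 were called lower, 0 higher and 11 were not called, against 17.1% lower and 7.76% higher over all genes, and the median was -0.26. Dbp read 9.44 and 9.48 without stimulus and 6.54 and 7.29 with LPS and fell by 2.55 ± 0.24 log2 (SE, n = 2 arrays per group), and the CLOCK-binding repressor Cipc read 10.23 and 10.24 without stimulus and 7.85 and 8.41 with LPS and fell by 2.11 ± 0.19. Tef, a relative of Dbp, fell by 1.05 ± 0.14, the repressor Per1 by 0.98 ± 0.13, Rora by 0.95 ± 0.20 and Nr1d2 by 0.72 ± 0.10, and all 6 of these calls were kept whichever of the 4 arrays was left out. Per3, at -0.44 ± 0.098, lost its call without unstimulated array 2 and without LPS array 1 (highest adjusted p = 0.0779). Arntl, Clock, Per2 and Cry1 were not called, with differences of 0.19, 0.36, 0.12 and 0.13. In p50-/-IL10-/- cells 8 of the 18 were lower after LPS and 2 were higher, Nfil3 (1.49) and Clock (0.67). Nfil3, a repressor that competes with Dbp for the same sites, was not called in IL10-/- cells at -0.38 ± 0.14, and its response differed between the genotypes by 1.88 (adjusted p = 0.00246 by limma's test of the difference).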
